A study of Homo sapiens with 3 samples.

Results

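Metallothioneins are small, cysteine-rich proteins that hold zinc, copper and cadmium, and they buffer zinc inside cells. Their genes are switched on by metals through the zinc-sensing transcription factor MTF-1, which binds metal response elements in their promoters, and also by glucocorticoids and oxidants. MT1 and MT2 isoforms are made in many tissues, MT3 is best known from brain, and MT4 from stratified squamous epithelium. The members described here are MT1E, MT1F, MT1G, MT1H, MT1M, MT1X and MT2A. They were found as all probe sets annotated to these 7 genes, including sets whose names end in _x_at, and this gave 11 of the 22283 probe sets in the series, and the 7 genes are among 11963 that have a single-gene probe set. All 11 carried a single gene symbol, and 9 of them ended in _x_at, a mark for probes that can also match related transcripts. Their signals can therefore hold RNA from several metallothionein genes.

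Transcripts were measured in CAL 27, a poorly differentiated squamous carcinoma cell line of the tongue, stably transfected with 1 of 3 constructs. The first was nm23-H1 fused to EGFP in the pEGFPC1 vector (Nm23-H1 is the nucleoside diphosphate kinase encoded by NME1), the second was pEGFPC1-nm23-H2 (the kinase encoded by NME2), and the third was the empty vector, which makes EGFP alone. Each construct had 1 array, so no difference has a replicate check, no test across samples was possible and no p-value is given. The vector line is described as 1 clone, while the number of nm23-H1 clones is not stated and the written design does not mention nm23-H2, so construct and separately grown line cannot be told apart. All 3 lines were grown in DMEM with fetal bovine serum, and no added metal, hormone or other treatment is stated. A separate labelling protocol is given for the nm23-H2 sample alone, so a difference in labelling cannot be told apart from that construct.

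Signals are given after each array was scaled to a common trimmed mean. Values below the pooled median of 28.3 signal units, the floor, were set to it for log2 differences, and a probe set counted as measured when it was above the floor on at least 1 of the 2 arrays compared. After scaling, 51.6%, 47.4% and 50.9% of probe sets lay above the floor on the nm23-H1, nm23-H2 and vector arrays. How far 2 probe sets of 1 gene disagree was taken as the error of a difference. Both sets are read on the same arrays, so this error leaves out variation between cultures, labellings and arrays. Its SD (log2) was 0.33 between nm23-H1 and vector, 0.35 between nm23-H2 and vector and 0.38 between the 2 nm23 arrays. Where both probe sets were above 1000 signal units, the same SD was 0.15, 0.17 and 0.15, over 65, 66 and 62 genes. The NME1 probe set was 1.57-fold the vector level on the nm23-H1 array, and the NME2 set, which the read-through transcript NME1-NME2 shares, was 2.13-fold the vector level on the nm23-H2 array. Squamous keratinocyte markers passed the floor on every array, 10 of 10 with a single-gene probe set, and their summed signal was 29121, 44990 and 34719 on the nm23-H1, nm23-H2 and vector arrays. With 1 probe set used per gene, 4, 1 and 2 of 10 markers of other cell types passed it, the brightest of these sets at 50.1 signal units (summed signal 237, 156 and 197). COL1A1 and DCN also had other probe sets that were measured. In such bulk RNA, fewer cells of a type and less RNA per cell cannot be told apart.

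The members lie in 1 cluster on chromosome 16, between 56608584 and 56684196 in assembly GRCh38.p14, a span of 75613 bases. In order of start they are MT2A, MT1E, MT1M, MT1F, MT1G, MT1H and MT1X, with other metallothionein genes and pseudogenes between them. RefSeq promoters were at hand for 3 of the 7 members, MT2A, MT1H and MT1X, while MT1E, MT1F, MT1G and MT1M had none in the table. Promoters are shown because MTF-1 acts through such sequences, and these 3 because no others were at hand. MT1H differed from MT2A and MT1X on the nm23-H1 array, and a link to these sequences was not tested. MT1F and MT1M also differed on that array and have no promoter to compare. The 250 bases before each annotated start on the plus strand follow, from chr16:56608334-56608583 for MT2A, chr16:56669564-56669813 for MT1H and chr16:56682220-56682469 for MT1X (RefSeq, GRCh38.p14). Capitals mark each match to the metal response element core, searched as TGCACNC and TGCGCNC on both strands.
MT2A: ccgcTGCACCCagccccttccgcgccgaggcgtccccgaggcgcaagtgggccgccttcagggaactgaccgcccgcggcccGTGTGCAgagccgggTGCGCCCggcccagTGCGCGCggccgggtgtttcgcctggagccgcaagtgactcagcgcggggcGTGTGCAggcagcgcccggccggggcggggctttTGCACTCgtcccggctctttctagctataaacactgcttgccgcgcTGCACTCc
MT1H: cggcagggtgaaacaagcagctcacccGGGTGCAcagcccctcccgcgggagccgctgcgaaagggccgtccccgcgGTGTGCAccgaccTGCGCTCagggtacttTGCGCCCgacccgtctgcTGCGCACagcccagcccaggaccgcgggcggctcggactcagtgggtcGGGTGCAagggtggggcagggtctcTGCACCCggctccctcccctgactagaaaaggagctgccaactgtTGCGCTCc
MT1X: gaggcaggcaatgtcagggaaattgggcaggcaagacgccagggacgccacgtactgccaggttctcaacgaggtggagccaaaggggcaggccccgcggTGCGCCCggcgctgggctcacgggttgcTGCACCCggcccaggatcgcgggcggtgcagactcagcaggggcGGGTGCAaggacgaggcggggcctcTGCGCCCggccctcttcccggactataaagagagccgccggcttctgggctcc

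The core was matched 7 times upstream of MT2A, 8 times upstream of MT1H and 4 times upstream of MT1X. Of 35116 promoters searched the same way, 24.8% held at least 1 match and 130 (0.370%) held at least 4. All 3 sequences are rich in G and C, at 73.2%, 70.4% and 70%, and the core itself is mostly G and C. MT2A and MT1X each had a TATA box (TATAAA, on the given strand), against 6.80% of all promoters. No match to these letters was found upstream of MT1H. The core of the antioxidant response element (TGACNNNGC, both strands) was matched once upstream of MT2A and of MT1X and not upstream of MT1H, against 10.9% of all promoters. An AP-1 site (TGANTCA, both strands) was matched once, upstream of MT2A, against 6.57% of all promoters. This match lies within the bases of the antioxidant element match of MT2A, so they are not separate sites. The GC box GGGCGG (both strands) was matched 2, 1 and 2 times in MT2A, MT1H and MT1X. Of all promoters, 42.6% held at least 1 GC box and 24.3% at least 2, so these counts are common. A match to these letters is a description of the sequence, and no factor binding was measured.

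**Figure D1:**
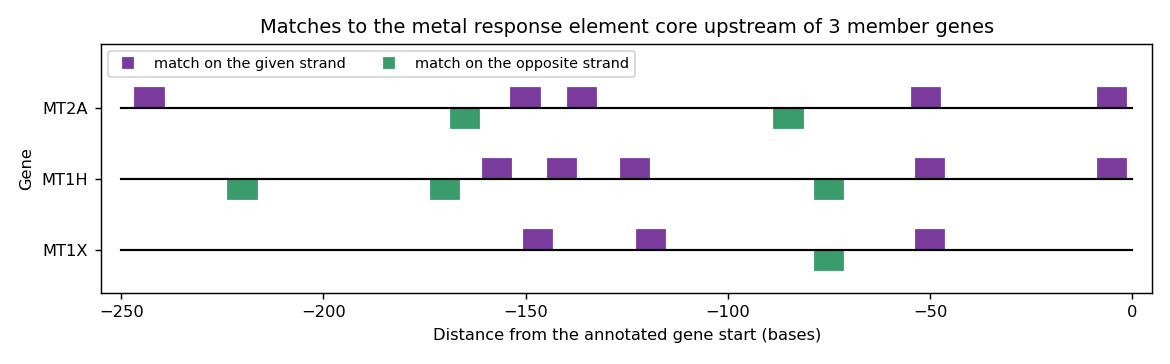
Matches to the metal response element core in the 250 bases before the annotated start of MT2A, MT1H and MT1X, by distance from the start in bases. Boxes above a line are on the given strand and boxes below it on the opposite strand, with 7, 8 and 4 matches from top to bottom.

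With nm23-H1, most metallothionein sets lay within 0.33 (log2) of vector, the SD over all pairs, with exceptions in 3 genes. Both MT1F sets and the dim MT1M set were higher by more, and MT1H was lower by more. MT1E 216336_x_at, at 0.30, lay within that SD but above the SD of 0.15 between probe sets above 1000 signal units. With nm23-H2, 8 of the 10 measured sets lay within 0.36 (log2) of vector, and the sets MT1E 212859_x_at and MT1F 213629_x_at were lower by more. For MT2A and both MT1X sets the largest difference from vector was 0.20 (MT2A with nm23-H2). All 10 measured sets were above the floor on all 3 arrays. The remaining set, MT1G 210472_at, was below it on all 3 and gave no difference. Levels are compared only within a probe set, since signals of different probe sets are not on 1 scale.

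**Figure D2:**
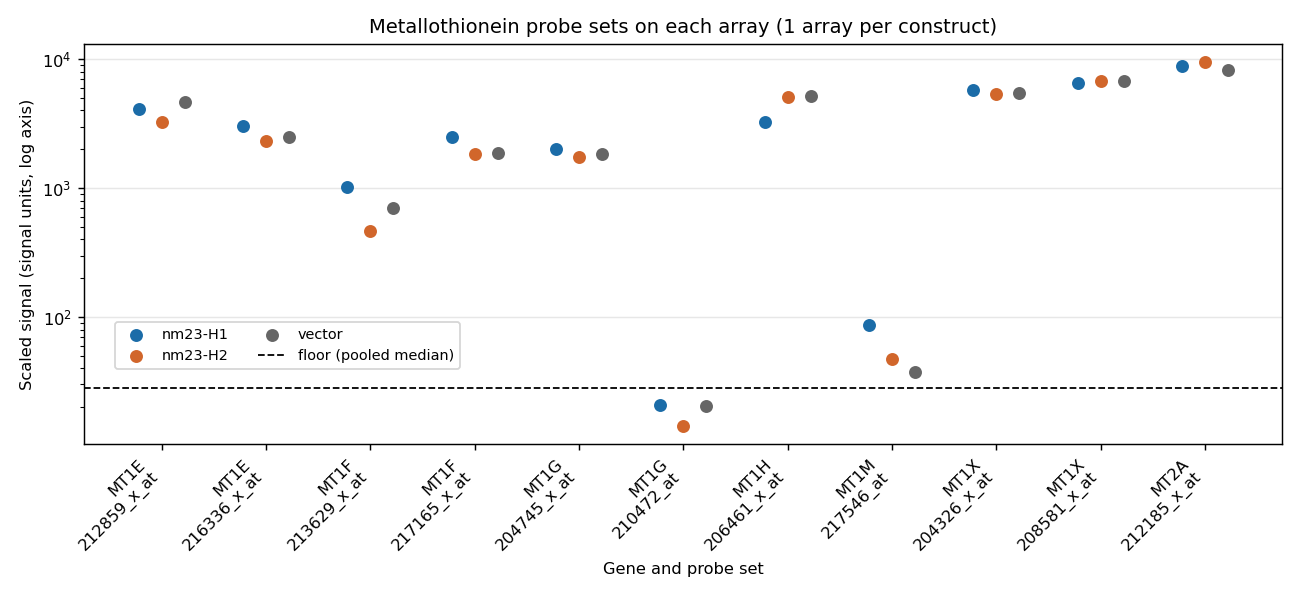
Scaled signal (log axis) of the 11 metallothionein probe sets on the nm23-H1, nm23-H2 and vector arrays, 1 point per array, with the floor of 28.3 signal units as a dashed line. MT1G 210472_at lies below the floor on all 3 arrays, MT1M 217546_at lies just above it, and the other 9 sets lie well above it.

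MT2A, the only functional MT2 gene in humans, lies at 56608584 to 56609497. Its probe set 212185_x_at gave 8911 signal units with nm23-H1, 9469 with nm23-H2 and 8217 with vector. The vector array was lowest, by 0.12 (log2) against nm23-H1 and 0.20 against nm23-H2. The first is below the SD of 0.15 between probe sets above 1000 signal units, and the second is above that SD of 0.17 and below the SD of 0.35 over all pairs. The nm23-H2 difference was -0.14 after quantile normalization, so its direction depended on the scaling.

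MT1X (56682470 to 56684196), a zinc-binding MT1 isoform, had a pair of probe sets. Set 208581_x_at gave 6534, 6805 and 6798 signal units on the nm23-H1, nm23-H2 and vector arrays. Set 204326_x_at gave 5711, 5392 and 5509 on the same arrays. The differences from vector were -0.06 and 0.00 (log2) for the first set and 0.05 and -0.03 for the second, with nm23-H1 and nm23-H2 in that order, and signs this close to 0 changed between alternative settings. The accession listed for 204326_x_at is that of the transcript of MT1L, a pseudogene of the same cluster, although the annotation names MT1X, so this set may report either.

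MT1E (56625781 to 56627112), another zinc-binding isoform, also had a pair of sets, and they disagreed about vector. Set 212859_x_at gave 4140 signal units with nm23-H1, 3235 with nm23-H2 and 4661 with vector, so vector was highest. Set 216336_x_at gave 3049, 2326 and 2476, so nm23-H1 was highest. Their log2 differences were -0.17 and 0.30 for nm23-H1 against vector, a gap of 0.47, and -0.53 and -0.09 for nm23-H2 against vector, a gap of 0.44. Over the alternative settings the first set's nm23-H2 difference stayed between -0.70 and -0.20, while the second set's ran from -0.31 to 0.24. Against each other the nm23 arrays gave 0.36 and 0.39, a gap of 0.03, and nm23-H1 was the higher in both sets.

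MT1F (56657959 to 56659303) was higher with nm23-H1 than with vector in both of its probe sets. Set 213629_x_at gave 1027 signal units with nm23-H1, 467 with nm23-H2 and 706 with vector. Set 217165_x_at gave 2487, 1824 and 1877. The differences between nm23-H1 and vector were 0.54 and 0.41 (log2), both above the SD of 0.33, and over all alternative settings they stayed between 0.40 and 0.65. With nm23-H2 the first set was lower than vector by -0.59, and the second differed by -0.04. Between the nm23 arrays 213629_x_at was 2.20-fold higher with nm23-H1, while 217165_x_at was 1.36-fold higher. The 2-fold call rests on the first set and was lost with the values as deposited (0.92) and with the mean of both sets (0.79).

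MT1G (56666730 to 56668065) was measured by 204745_x_at, which gave 2024 signal units with nm23-H1, 1730 with nm23-H2 and 1843 with vector. These values span 0.23 (log2) between the highest and the lowest array. Its set without the _x_at ending, 210472_at, gave 20.9, 14.4 and 20.4 signal units, all below the floor. The sole MT1G set free of the _x_at mark was thus dim, and what the brighter one detects of other metallothioneins was not tested.

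MT1H (56669814 to 56671129), the gene next to MT1G, went the other way from MT1F. Its set 206461_x_at gave 3244 signal units with nm23-H1, 5043 with nm23-H2 and 5140 with vector. The nm23-H1 array was the low one, at 0.631-fold the vector level (-0.66 log2) and -0.64 against nm23-H2, while nm23-H2 and vector differed by 0.03. The difference from vector stayed between -0.66 and -0.55 over all alternative settings. Its upstream sequence, with 8 matches to the metal response element core, is printed above. MT1H had no further probe set, and whether other metallothionein transcripts contribute to this _x_at signal was not tested.

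MT1M (56632659 to 56633981) was the 1 member measured by a set without the _x_at ending. Set 217546_at gave 87.5 signal units with nm23-H1, 47.7 with nm23-H2 and 37.2 with vector, so nm23-H1 was highest and vector was little above the floor. The nm23-H1 signal was 2.35-fold the vector signal (1.23 log2). At this brightness the value depends on the floor, and it was 0.40 when the floor was raised to the 70th percentile and 0.96 when 16 was added to every signal instead. Against nm23-H2 it was 0.88 higher with nm23-H1, and nm23-H2 was 0.36 above vector.

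**Figure D3:**
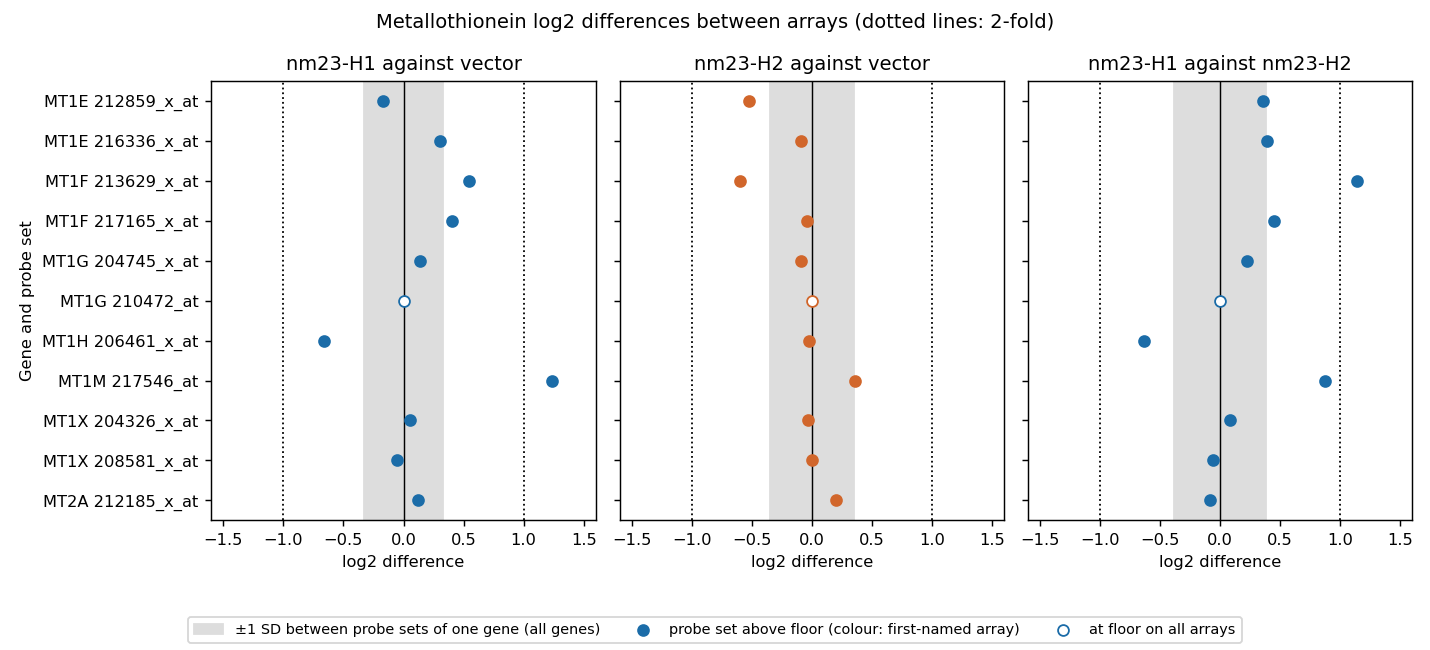
The log2 difference of each metallothionein probe set in each comparison, with the SD between probe sets of 1 gene in grey and 2-fold as dotted lines. MT1M (1.23, nm23-H1 against vector) and MT1F 213629_x_at (1.14, nm23-H1 against nm23-H2) pass 2-fold, and the open point is MT1G 210472_at, at the floor on all arrays.

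For nm23-H1 against vector, 1 of the 10 measured sets was at least 2-fold higher (MT1M) and 0 were at least 2-fold lower, where 2.24% of all 12542 measured probe sets were higher and 1.75% lower by that much. For nm23-H2 against vector, 0 of 10 were at least 2-fold higher and 0 lower, against 3.74% and 3.53% of 12207. For nm23-H1 against nm23-H2, 1 of 10 was at least 2-fold higher (MT1F 213629_x_at) and 0 lower, against 3.79% and 3.99% of 12329. With 10 sets a single call is 10.0%, so these counts cannot be set apart from the background. The array order nm23-H1, then vector, then nm23-H2 occurred in 6 of 11 sets, 1 of them the MT1G set below the floor. The other 5 sets had 5 different orders. How often each order occurs among all probe sets was not counted, and the order depended on the scaling. As deposited, MT1E 216336_x_at gave 2974, 2641 and 2237 signal units with nm23-H1, nm23-H2 and vector, so vector was lowest. Vector was also lowest as deposited in MT1F 217165_x_at, MT1G 204745_x_at and MT1X 204326_x_at.

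The median log2 difference of the 10 sets was 0.13 for nm23-H1 against vector, beside 0.01 for all measured probe sets. It was 0.29 for nm23-H1 against nm23-H2, beside 0.10. For nm23-H2 against vector it was -0.04, beside -0.07, and with the values as deposited it was 0.29, since leaving out the scaling moved the median of all probe sets to 0.22. With the trimmed-mean scaling, bright probe sets as a class were shifted upward on the nm23-H2 array. Over the 639 with a mean signal of at least 1000, the median difference was 0.14 between nm23-H2 and vector and -0.20 between nm23-H1 and nm23-H2. After quantile normalization these class medians were -0.05 and 0.02, so the shift depended on the scaling. With the trimmed-mean scaling, the 8 metallothionein sets with a mean signal of at least 1000 had medians of -0.04 and 0.15 in the same comparisons. For nm23-H1 against vector the 8 sets had a median of 0.08, beside -0.04 for the bright class. Of the bright sets, 0.782% passed 2-fold upward and 2.03% downward with nm23-H1 relative to vector, and 4.07% and 1.56% with nm23-H2. Between the nm23 arrays the shares were 1.72% and 5.16%. The 8 metallothionein sets had 0 such calls in any of the 3 comparisons.

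**Figure D4:**
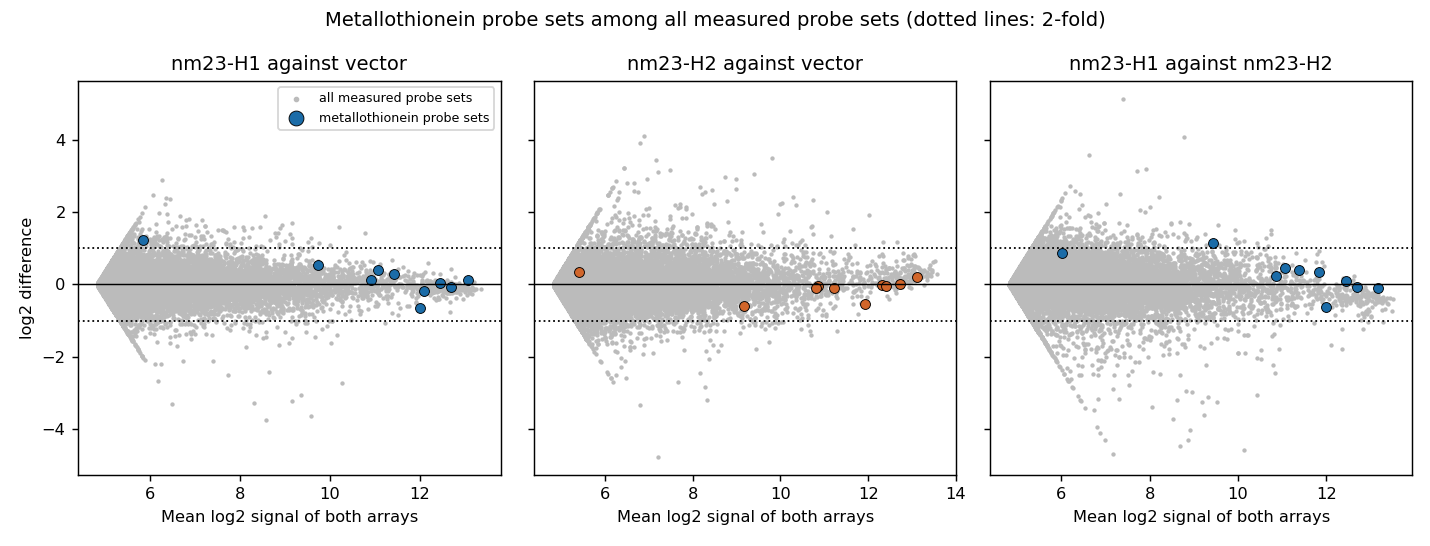
The log2 difference against the mean log2 signal of both arrays for all measured probe sets (grey) and the 10 measured metallothionein sets (coloured), with 2-fold as dotted lines. Most metallothionein sets lie near 0 at the bright end of each plot, and MT1M lies at the dim end.

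Of the other metallothionein genes, which are no members, MT1HL1 and MT3 differed by less than 2-fold in each comparison. MT1HL1 (set 211456_x_at), a metallothionein gene on chromosome 1, gave 3728 signal units with nm23-H1, 4882 with nm23-H2 and 3765 with vector. The nm23-H2 array was highest, by 0.37 (log2) against vector, which is above the SD of 0.35 over all pairs. What this _x_at set detects of other metallothioneins was not tested. MT3 gave 56.7, 46.6 and 57.7 signal units, and its largest difference from vector was -0.31, with nm23-H2. MT4, the isoform of stratified squamous epithelium, was below the floor on all 3 arrays, at 8.10, 8.19 and 3.32 signal units.

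Genes that control or respond to metals were set beside the members, with 1 probe set per gene. Over all genes tested in this way, 2.20% passed 2-fold upward and 1.78% downward with nm23-H1 relative to vector. With nm23-H2 relative to vector the shares were 3.80% and 3.82%, and between the nm23 arrays they were 3.93% and 3.99%. MTF1, the metal sensor, gave 27.9 signal units with nm23-H1, 38.7 with nm23-H2 and 31.8 with vector, all near the floor (log2 differences from vector of -0.16 and 0.28). SLC30A1, the zinc exporter that MTF-1 also switches on, gave 24.6 and 4.40 signal units on the nm23-H1 and nm23-H2 arrays, both below the floor, and 46.4 on the vector array. That is at least 1.64-fold lower than vector on both nm23 arrays, but the value depended on the floor. Over the alternative settings the log2 difference of SLC30A1 ran from -0.91 to 0 with nm23-H1 and from -2.50 to 0 with nm23-H2. The metallothionein medians were 0.13 and -0.04.

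Of 12 measured genes in the list of zinc transporters and MTF1, 0 were at least 2-fold higher and 1 lower with nm23-H1, and 1 was higher and 0 lower with nm23-H2 (medians 0.08 and 0.04, beside 0.01 and -0.09 for all genes). SLC39A2, a zinc importer, was below the floor with nm23-H1 (27.9 signal units) against 84.5 with vector, at least 2.98-fold lower, and nm23-H2 gave 66.0. It stayed at 2-fold against vector in 8 of 9 alternative settings and was -0.35 (log2) with the 70th percentile as the floor. SLC39A7, which releases zinc from the endoplasmic reticulum, gave 81.0 signal units with nm23-H2 and 38.6 with vector, 2.10-fold higher, and stayed at 2-fold in 5 of 8 alternative settings. SLC39A9, a further zinc transporter, was 2.04-fold higher with nm23-H1 than with nm23-H2, and stayed at 2-fold in 3 of 8 alternative settings. Its other probe set was below the floor with nm23-H2, so its value of 0.08 (log2) is a lower limit. Between the nm23 arrays 1 of 11 measured zinc genes was at least 2-fold higher with nm23-H1 and 2 lower.

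Copper genes, whose metal also binds metallothioneins, had 0 of 12 at least 2-fold different with nm23-H1 against vector. With nm23-H2 1 of 10 was higher and 1 lower than vector. SCO2, a copper chaperone of cytochrome oxidase, gave 319 signal units with nm23-H2 against 108 with vector, 2.96-fold higher, and stayed at 2-fold in all 8 alternative settings. SLC31A1, the copper importer, gave 30.8 against 66.1, 2.14-fold lower, and stayed at 2-fold in 4 of 8. Between the nm23 arrays SLC31A1 was 2.25-fold higher with nm23-H1, the 1 of 12 genes at 2-fold, and stayed so in 4 of 8 settings (0.06 on the log2 scale with the 70th percentile as the floor). Of the iron genes, 0 of 12 passed 2-fold between nm23-H1 and vector, 0 of 11 between nm23-H2 and vector and 0 of 12 between the nm23 arrays.

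Among genes that metals and oxidants induce, 1 of 15 was at least 2-fold higher and 0 lower in each comparison with vector, and 0 of 15 were called between the nm23 arrays. The gene was GCLM, a subunit of the enzyme that starts glutathione synthesis. It gave 151 signal units with nm23-H1, 174 with nm23-H2 and 52.1 with vector, which is 2.90-fold and 3.34-fold the vector level. HMOX1, heme oxygenase, a standard responder to heavy metals and oxidants, gave 50.7, 55.1 and 45.2 signal units, which lie within 0.29 (log2) of vector. The 2 comparisons with vector share the vector array.

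The glucocorticoid-induced list had 1 of 16 at least 2-fold higher and 0 lower for nm23-H1 against vector, and 5 of 15 higher and 2 lower for nm23-H2 against vector, with medians of -0.03 and 0.55. The higher genes with nm23-H2 were DUSP1 (3.52-fold), NFKBIA (3.21-fold), CEBPB (3.01-fold), ZFP36 (2.54-fold) and MAOA (2.17-fold). DUSP1, NFKBIA, CEBPB and ZFP36 are also known as genes induced by inflammatory and growth signals. TXNIP, a thioredoxin inhibitor that also follows glucose, gave 692 signal units with nm23-H1, 128 with nm23-H2 and 317 with vector, 2.19-fold higher with nm23-H1 and 2.48-fold lower with nm23-H2. GLUL, glutamine synthetase, gave 715 signal units with nm23-H2 against 1476 with vector, 2.06-fold lower. NR3C1, the glucocorticoid receptor, gave 81.7, 79.0 and 83.0 signal units by the probe set used with nm23-H1, nm23-H2 and vector. Its 3 other measured sets had a median difference from vector of 0.27 (log2) with nm23-H1 and -0.17 with nm23-H2, and of 0.44 between the nm23-H1 and nm23-H2 arrays. TSC22D3, a standard target of the receptor, gave 324, 303 and 317 signal units. Between the nm23 arrays 1 of 16 was at least 2-fold higher with nm23-H1 (TXNIP, 5.42-fold) and 5 were lower. The lower genes were DUSP1, NFKBIA, ZFP36, MAOA and CEBPB. GLUL was 1.59-fold higher with nm23-H1 than with nm23-H2 by the probe set used. Its 2 other measured sets had a median of 1.26 (log2) in that comparison, above 2-fold.

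**Figure D5:**
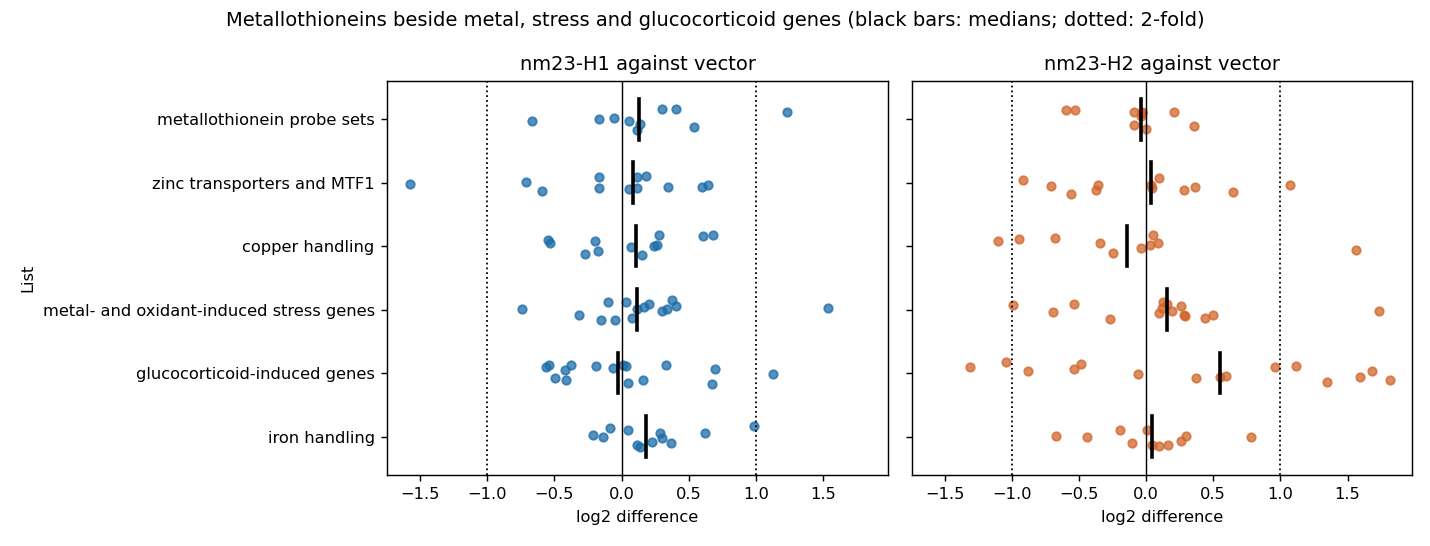
The log2 differences from vector of the 10 measured metallothionein probe sets and of the measured genes of 5 lists, for nm23-H1 and nm23-H2, with medians as black bars and 2-fold as dotted lines. The glucocorticoid-induced list has a median of 0.55 with nm23-H2, where the metallothionein median is -0.04.

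Neighbours of the cluster on chromosome 16, taken within 1 Mb of the outermost members, included 22 genes with a probe set, 18 of them measured in each comparison with vector. Their median difference was -0.07 for nm23-H1 and -0.20 for nm23-H2. HERPUD1, a gene of endoplasmic reticulum stress and protein degradation, gave 177 signal units with nm23-H1, 1406 with nm23-H2 and 186 with vector. It was the 1 neighbour at least 2-fold higher with nm23-H2, while the metallothionein sets beside it in the genome had 0 such calls. CX3CL1, a chemokine, was at least 2.49-fold lower with nm23-H2 (below the floor, against 70.5 signal units with vector) and stayed at 2-fold in 6 of 8 settings. Its other probe set was below the floor with nm23-H2, so its difference was -0.18 (log2) or lower. The set used gave -0.09 with the 70th percentile as the floor. PSME3IP1 was 2.13-fold lower with nm23-H1 (37.2 against 79.4). PSME3IP1 differed by -0.26 (log2) under the setting that moved it most. NUP93, a nuclear pore gene and the first measured neighbour past MT1X, gave 241, 283 and 147 signal units, 0.72 and 0.95 above vector, whereas OGFOD1 on the other side of the cluster gave 102, 105 and 111.

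Genes were ranked by how near they lay to the members' medians. The distance was taken over 3 arrays, from the log2 differences from vector with nm23-H1 and nm23-H2. Nearest were MIER2, MED20, DNAJC11, SDR39U1 and NDUFAB1, at distances of 0.005, 0.020, 0.020, 0.021 and 0.021. NDUFAB1, an acyl carrier protein of mitochondria, gave 1517 signal units with nm23-H1, 1334 with nm23-H2 and 1388 with vector. The 5026 genes compared all had at least 66.2 signal units (the 70th percentile) on an array. Of these, 763 (15.2%) lay within 0.25 of the members' medians, so small differences like those medians were common. Several members lay further from their own medians, among them MT1H (-0.66 with nm23-H1), MT1M (1.23 with nm23-H1) and MT1F 213629_x_at (0.54 with nm23-H1 and -0.59 with nm23-H2).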

How the data were processed

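The authors deposited 1 table of linear signal intensity for each probe set and array, from MAS5 per the submitters' processing notes; its version, scaling target and detection calls are not given in the sources used here. The arrays' means between the 2nd and 98th percentiles, 85.9 (nm23-H1), 100.0 (nm23-H2) and 79.6 (vector), were scaled to their geometric mean (factors 1.03, 0.881 and 1.11), values were floored at the pooled median, and log2 was taken. Each gene outside the family was read from its brightest probe set, with _x_at sets used only where there was no other. A difference of 1 (log2, 2-fold) was counted; where the dimmer array is at the floor the fold is a lower limit. The error was taken from genes with several probe sets: the log2 differences of the brightest pair were subtracted, and the SD over genes was divided by √2. Named were all member sets, MTF1, SLC30A1, NR3C1, NME1, NME2, up to 5 list genes or any neighbour at 2-fold, and the 5 nearest genes. HMOX1, HSPH1, TSC22D3, NUP93, OGFOD1 and a sixth and seventh glucocorticoid gene were added after their values were seen. Members and lists were chosen with earlier results of these data known. Symbols came from the platform annotation, updated by gene ID, and positions and promoters from RefSeq (GRCh38.p14). The steps were tested on simulated data. Alternatives were 3 other scalings, 2 other floors, 16 added in place of a floor, counting at 1.5-fold, gene means and single-gene sets; 3 were added after seeing the data. Python 3.11.15, numpy 2.4.6, pandas 2.3.3 and matplotlib 3.10.9 were used.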

Additional observations from a re-analysis of the deposited data

How the results depend on the processing

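No paired analysis was possible because each construct has 1 array. The number of metallothionein sets at least 2-fold higher was 1 for nm23-H1 against vector and became 0 with the 70th percentile as the floor, when 16 was added to every signal instead, and over sets with a mean signal of at least 1000. For nm23-H1 against nm23-H2 it was 1, and became 0 with the values as deposited, with gene means and over those bright sets, and 2 when centred on bright probe sets. Counted at 1.5-fold, it was 2 for nm23-H1 against nm23-H2, and 1 set was lower in each of the 3 comparisons. The share of all measured probe sets at 1.5-fold was not counted, so these counts have no background to be set against. For nm23-H1 against vector, 3 of 67 measured list genes were at least 2-fold different, beside 2.20% of all genes higher and 1.78% lower. For nm23-H2 against vector it was 11 of 63, beside 3.80% and 3.82%. Between the nm23 arrays it was 10 of 66, beside 3.93% and 3.99%. Lowering the floor to the 25th percentile gave 6 of 71 for nm23-H1 against vector. Raising it to the 70th gave 6 of 48 between the nm23 arrays. At 1.5-fold the list counts were 14, 23 and 26 in the same order, and the share of all genes at 1.5-fold was not counted. The members' median ranged from 0.07 to 0.24 for nm23-H1 against vector, from 0.07 to 0.49 for nm23-H1 against nm23-H2, and from -0.22 (quantile normalization) to 0.29 (as deposited) for nm23-H2 against vector, changing sign. No named value at 2-fold changed sign. Sets annotated to 1 gene gave the same values, since all members are, and leaving the nm23-H2 array out of the scaling left the median for nm23-H1 against vector at 0.13. Centring on bright sets, the bright subset and leaving out that array were chosen after seeing the data.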
